A study of Mus musculus with 9 samples.

Results

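The 6 genes described here encode the mouse receptors for bradykinin and for extracellular proteases: Bdkrb1 and Bdkrb2 for kinins, and F2r, F2rl1, F2rl2 and F2rl3 for the protease-activated receptors PAR1 to PAR4. They were chosen by symbol, and all 6 were found among the 55536 Ensembl genes of the count tables. Messenger RNA was sequenced from the lumbar dorsal root ganglia of adult C57Bl6 mice, which hold the cell bodies of sensory neurons that serve the hind part of the body. One group held 5 libraries labelled Prdm12 inducible conditional knock-out (icKO) and the other 4 libraries labelled wild type (control), at 1 month after tamoxifen, the drug that switches on the deletion. Prdm12 encodes a zinc finger regulator known for its role in pain-sensing neurons. The sources used here do not give the Cre line, the cells in which it acts, the deleted exons, or whether each library came from its own animal. The p-values therefore rest on the spread among these libraries, part of which may be technical, and any further difference between icKO and wild type mice cannot be told apart from the deletion.

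Both families belong to the G protein-coupled receptors and act mainly through Gq and phospholipase C. Kinins are short peptides cut from kininogen in injured or inflamed tissue. The B2 receptor (Bdkrb2) is present in resting tissue and senses bradykinin, while the B1 receptor (Bdkrb1) is known for being induced by inflammation and senses kinins that have lost their last arginine. Protease-activated receptors carry their own ligand: a protease cuts the outer end of the receptor, and the new end folds back and activates it. PAR1, PAR3 and PAR4 are known as targets of thrombin, and PAR2 as a target of trypsin-like proteases and mast cell tryptase. In sensory ganglia these receptors are studied as triggers of pain, itch and sensitisation of ion channels such as TRPV1.

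The genes lie in 3 places of the mm10 genome. F2rl1 (chromosome 13, 95511732 to 95525227, minus strand), F2r (95601803 to 95618487, minus strand) and F2rl2 (95696853 to 95702739, plus strand) follow each other on chromosome 13. Bdkrb2 (105563226 to 105595237) and Bdkrb1 (105603085 to 105605428) are neighbours on the plus strand of chromosome 12, 7848 bp apart. F2rl3 stands alone on chromosome 8, from 72761880 to 72763874. F2rl2 lies inside the span of Iqgap2, a scaffold protein gene on the opposite strand, and shares 0 exonic bases with it. Whether counting used the strand is not stated, so intronic reads of unspliced Iqgap2 RNA could add to F2rl2. In control, Iqgap2 exons were at 2.06 CPM per kb and F2rl2 exons at 55.9 CPM per kb, where CPM is the read count after scaling every library to the same total (TMM-adjusted), and kb is the length of the merged exons.

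Promoters are shown for the 3 receptor genes with the most to compare: F2rl2 and F2r, which share a region of chromosome 13, and Bdkrb2, whose level differed most between the groups. They are RefSeq sequences on GRCm38.p6, the same assembly as mm10, and 4 of the 6 genes matched that table (not F2rl1 and Bdkrb1). Each run is on the strand of the gene. The F2rl2 and F2r runs end at the base before the first GENCODE base of the gene, and the Bdkrb2 run ends at the base before its RefSeq start, which lies upstream of the GENCODE start given above. Capitals mark matches, on either strand, to 6 motifs that are spelled out after the sequences.
F2rl2, chr13:95696670-95696852, plus strand: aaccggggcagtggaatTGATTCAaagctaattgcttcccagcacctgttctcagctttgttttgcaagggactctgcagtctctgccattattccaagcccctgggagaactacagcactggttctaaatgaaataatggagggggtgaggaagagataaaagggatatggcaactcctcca
F2r, chr13:95618488-95618716, minus strand: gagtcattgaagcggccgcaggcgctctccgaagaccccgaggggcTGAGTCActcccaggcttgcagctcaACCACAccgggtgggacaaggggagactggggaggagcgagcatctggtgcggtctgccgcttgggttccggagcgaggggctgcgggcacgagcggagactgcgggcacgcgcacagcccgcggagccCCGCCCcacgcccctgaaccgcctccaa
Bdkrb2, chr12:105562922-105563171, plus strand: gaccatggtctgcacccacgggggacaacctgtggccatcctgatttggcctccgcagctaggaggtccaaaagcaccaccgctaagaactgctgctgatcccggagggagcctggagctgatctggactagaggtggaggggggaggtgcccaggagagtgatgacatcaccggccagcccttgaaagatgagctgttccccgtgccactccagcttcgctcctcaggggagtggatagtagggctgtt

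Motifs were searched in the 250 bases before the RefSeq start and set against 32851 promoters of that length. The AP-1 letters TGANTCA matched 2 times in F2rl2 and 1 time in F2r, and at least once in 6.75% of promoters. The second F2rl2 match, 54 bases before the RefSeq start, lies in the first GENCODE exon and is not printed. The RUNX core TGTGGT matched 1 time in F2r (14% of promoters). A GC box, GGGCGG, also matched 1 time in F2r (32.7% of promoters). The homeodomain core TAATTA (4.84% of promoters) matched in none of the 4 genes. The same held for the TATA box letters TATAAA (12.4% of promoters). It also held for TGACG, the core of a cyclic AMP response element (17.8% of promoters). Bdkrb2 and F2rl3 held none of these 6 motifs. The E-box letters CANNTG, found in 66.2% of promoters and not capitalised, occurred 3 times in F2rl3, 2 times in F2rl2, 1 time in F2r and 0 times in Bdkrb2. G and C made up 70.8% of the F2r window, 60.8% of Bdkrb2, 52% of F2rl3 and 48.4% of F2rl2. These are descriptions of letters and show no binding.

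F2rl2 was by far the most abundant of the 6 transcripts. Per length of merged exons, its level in control was 55.9 ± 3.13 CPM per kb (SD, n = 4), higher than 94.9% of tested protein-coding genes. F2r followed at 7.49 CPM per kb, Bdkrb2 at 1.66, F2rl3 at 1.41, F2rl1 at 0.191 and Bdkrb1 at 0.0206 CPM per kb. F2rl2 exceeded F2r in all 9 libraries, by 7.61-fold on average, and F2r exceeded F2rl3 in all 9, by 5.54-fold. The ranges of F2rl3 and Bdkrb2 overlapped within each group, but their order per length differed: Bdkrb2 was the higher in all 4 control libraries and F2rl3 in 4 of the 5 icKO libraries, all but icKO 3. That difference in order was not tested. F2rl1 lay above Bdkrb1 in all 9 libraries, although their ranges overlapped across libraries. As a share of the summed level per length of the 6 receptors, F2rl2 took 82.8 to 85.8% in control and 84.7 to 86.1% in icKO. Bdkrb2 took 2.15 to 2.97% in control and 1.05 to 1.97% in icKO. These shares come from the same CPM values as the comparison of groups below and are no separate result.

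**Figure D1:**
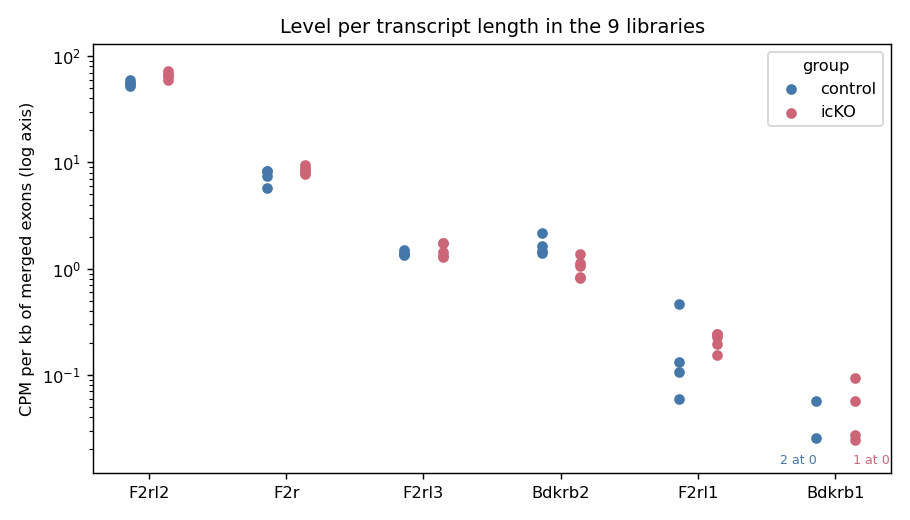
Level of the 6 receptor transcripts in CPM per kb of merged exons (log axis), with 1 point per library, control in blue and icKO in red. F2rl2 stands above F2r in all 9 libraries, and the 3 libraries in which Bdkrb1 had 0 counts are written as numbers because a log axis cannot show them.

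The comparison of icKO with control asks whether these receptors changed after loss of Prdm12 in the adult. In icKO, Prdm12 itself was at 24 ± 1.41 CPM (SD, n = 5), against 134 ± 20 CPM (SD, n = 4) in control. Of the 6 receptor genes, 5 passed the filter on low counts and Bdkrb1 did not. At an adjusted p under 0.05 (edgeR's quasi-likelihood test, Benjamini-Hochberg over all tested genes), 0 of the 5 were called, against 0.852% of 17258 tested genes. At an unadjusted p under 0.05 there were 2 of 5 (Bdkrb2 lower, F2rl2 higher), against 11.1% of all tested genes. The groups did not overlap for 1 of the 5, Bdkrb2, against 4.5% of tested genes (2.34% lower and 2.16% higher in icKO). DESeq2, run on the same genes, called Bdkrb2 lower and F2rl2 higher (adjusted p = 0.0184 and 0.0131), and it called 2.53% of all tested genes.

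**Figure D2:**
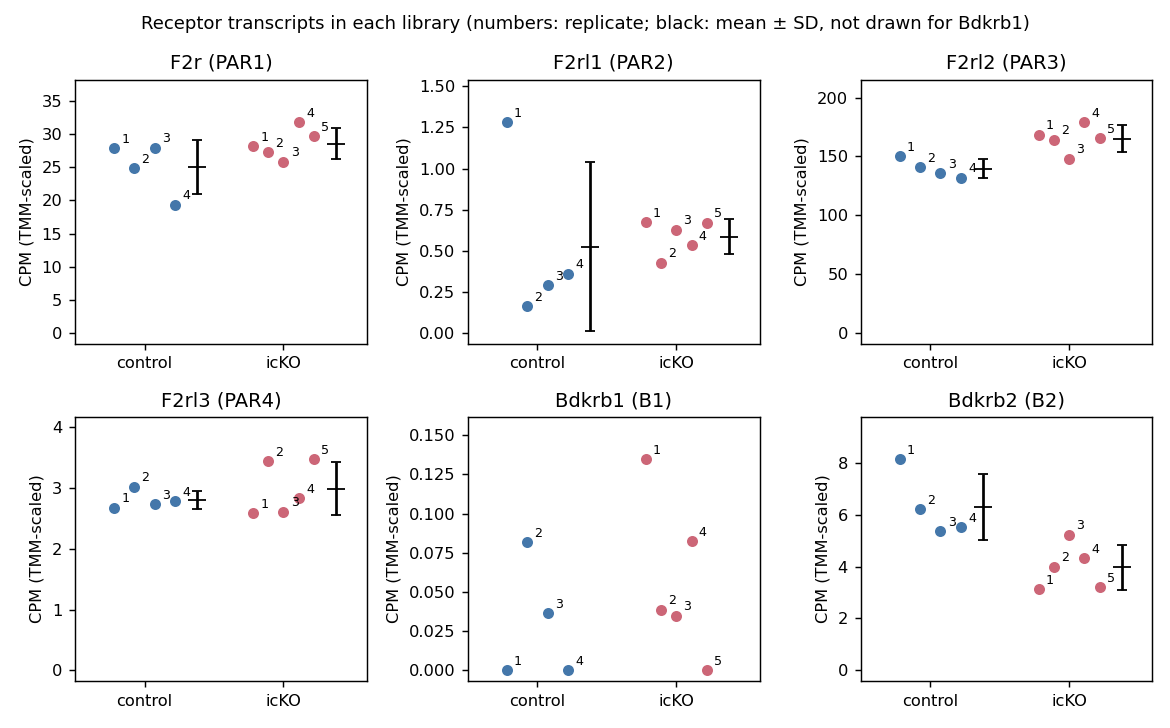
CPM of each receptor gene in each library, with 1 panel per gene, its own axis from 0 and replicate numbers beside the points. The mean ± SD is in black and is not drawn for Bdkrb1. All icKO libraries of Bdkrb2 lie below all control libraries, and control 1 stands above the other control libraries for F2rl1.

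Bdkrb2, the receptor for bradykinin in resting tissue, had the largest difference. Its control libraries 1 to 4 held 8.14, 6.21, 5.36 and 5.51 CPM, and its icKO libraries 1 to 5 held 3.13, 3.99, 5.22, 4.32 and 3.2 CPM. Every icKO library was below every control library, with icKO 3 just under control 3, and control 1 was the highest of all. The means were 6.30 ± 1.28 CPM (SD, n = 4) in control and 3.97 ± 0.866 CPM (SD, n = 5) in icKO, so that icKO was at 63% of control. The log2 fold change was -0.67 (SE 0.17, 95% interval -1.05 to -0.29), and edgeR's adjusted p of 0.113 did not pass. For this gene alone, an exact permutation test on log2 CPM, two-sided, gave p = 0.0159, where 0.00794 is the smallest that groups of 5 and 4 allow. The counts behind these values were 107 to 222 per control library and 81 to 150 per icKO library. The call depended on the method: DESeq2 and edgeR without a filter on low counts (adjusted p = 0.0284) passed the threshold. Libraries fell into 4 with high counts of Y-linked genes (98.5 to 166 CPM over 4 genes) and 5 with low ones (0.105 to 3.64 CPM). Within the high class (2 icKO and 2 control libraries) the icKO to control ratio of Bdkrb2 was 0.527. Within the low class (3 icKO and 2 control libraries) it was 0.725. Groups that are apart over all libraries are apart within any class, so the split adds no test.

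F2rl2 encodes PAR3, a thrombin-cleaved receptor that on mouse platelets is known to help thrombin act on PAR4. Control libraries 1 to 4 held 150.2, 140.8, 135.9 and 132.1 CPM, and icKO libraries 1 to 5 held 168.5, 164.3, 148.2, 179.3 and 165.4 CPM. All icKO libraries but icKO 3 lay above every control library, and icKO 3 lay just under control 1. The means were 140 ± 7.83 CPM (SD, n = 4) and 165 ± 11.2 CPM (SD, n = 5), a 1.18-fold difference. With 2564 to 5008 counts per library, F2rl2 was the most deeply counted of the 6 genes. Its log2 fold change was 0.24 (SE 0.06, 95% interval 0.1 to 0.38), with edgeR's adjusted p at 0.12 and p = 0.0238 by the two-sided exact permutation test. The icKO to control ratio was 1.16 in the high class of Y-linked counts and 1.2 in the low class. Iqgap2, which spans F2rl2, was at 11.9 ± 2.93 CPM in control and 13.8 ± 2.41 CPM in icKO (log2 fold change 0.22, SE 0.17, adjusted p = 0.715), and its part in the F2rl2 value was not tested.

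F2r encodes PAR1, the main thrombin receptor of many cell types. Control libraries 1 to 4 held 27.9, 24.8, 27.95 and 19.3 CPM, and icKO libraries 1 to 5 held 28.2, 27.2, 25.8, 31.8 and 29.7 CPM. The groups overlapped, and control 4 was the lowest of all 9. The log2 fold change was 0.19 (SE 0.10, 95% interval -0.04 to 0.41, edgeR adjusted p = 0.563), and 0.09 without control 4. In the high class of Y-linked counts F2r was at 27.9 to 28 CPM in control and 27.2 to 28.2 CPM in icKO. In the low class it was at 19.3 to 24.8 CPM in control and 25.8 to 31.8 CPM in icKO. The difference between the classes was not tested.

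F2rl3, the gene of the thrombin receptor PAR4, was low and even. Control libraries 1 to 4 held 2.68, 3.02, 2.73 and 2.78 CPM and icKO libraries 1 to 5 held 2.59, 3.45, 2.61, 2.84 and 3.47 CPM. The control libraries fell inside the icKO range. The log2 fold change was 0.09 (SE 0.14, edgeR adjusted p = 0.877), and its 95% interval of -0.21 to 0.39 corresponds to 0.866 to 1.31 times control. F2rl3 had 54 to 89 counts per library.

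F2rl1, the gene of the trypsin and tryptase receptor PAR2, was near the limit of detection. Its counts were 35, 4, 8 and 7 in control 1 to 4 and 20, 11, 18, 13 and 17 in icKO 1 to 5. Control 1 was the highest of all libraries and the other 3 control libraries were lower than every icKO library. The values were 1.28, 0.163, 0.292 and 0.361 CPM in control and 0.673, 0.426, 0.627, 0.535 and 0.671 CPM in icKO. With all libraries the log2 fold change was 0.13 (SE 0.47, 95% interval -0.89 to 1.14, edgeR adjusted p = 0.963). Without control 1 it was 1.12 (SE 0.33, adjusted p = 0.203), without control 4 it was 0, and it was below 0 without control 2 (-0.17) or control 3 (-0.08). Single control libraries therefore set the size and the sign of this value.

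Bdkrb1, the inducible kinin receptor, was not detectable above the floor in most libraries. Counts were 0, 2, 1 and 0 in control 1 to 4 and 4, 1, 1, 2 and 0 in icKO 1 to 5. Only icKO 1, at 0.135 CPM, exceeded the limit that 3 counts allow, which was 0.101 to 0.155 CPM over the libraries. That limit covers counting error only, and no fold is given.

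Genes beside the receptors were read from the same libraries, and 0 of the 5 neighbours that passed the filter, Iqgap2 among them, were called by edgeR or DESeq2 or had an unadjusted p under 0.05. Atg2b, an autophagy gene next to Bdkrb1, was at 49.8 ± 6.22 CPM in control and 49.2 ± 2.74 CPM in icKO (edgeR adjusted p = 0.975). On chromosome 13, the synaptic vesicle protein gene Sv2c beyond F2rl2 had a log2 fold change of -0.11 (SE 0.09), and S100z beside F2rl1 had at most 1 count in a library. Beside F2rl3, the corepressor gene Sin3b was at 0.05 (SE 0.05).

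Profiles over the 9 libraries were compared by Pearson's r of log2 CPM for the 3 receptors with a mean of at least 5 CPM. This is a description, since these libraries also share depth and composition. Both groups were pooled, so a difference between groups can by itself raise r. The search covered tested protein-coding genes, without those under predicted-gene or clone-type symbols. The genes named had the highest r of that search, and picking the highest also favours high values. For F2rl2 the most similar of the genes searched were Exoc6, an exocyst gene (r = 0.959), Atp1b3, a sodium pump subunit gene (0.951), and Elp4 (0.949). Exoc6 rose in icKO, from 47.6 ± 3.09 to 62.4 ± 3.78 CPM (edgeR adjusted p = 0.0085). Ubxn2a (r = 0.941) and Kctd11 (0.929) were most similar to Bdkrb2. For F2r they were the ribosomal protein gene Rpl19 (0.931), the melanocortin receptor gene Mc3r (0.925) and Strn3 (0.915), and the first 2 of these were below 2 CPM.

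The wider pathway was read from 7 gene lists with 85 genes, of which 62 passed the filter. With edgeR's test 0 of the 62 were called, 8 had an unadjusted p under 0.05 (12.9%, against 11.1% of all tested genes) and 4 had groups without overlap (6.45%, against 4.5%). DESeq2 called 1, Prkcd, lower. The median size of the log2 fold change was 0.10 over the 62 and 0.09 over all tested genes.

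Genes that supply kinins were almost silent in the ganglia. All 5 (the kininogen genes Kng1 and Kng2, plasma and tissue kallikrein Klkb1 and Klk1, and factor XII, F12) stayed under the filter, and together they held 0.412 to 0.857 CPM in control and 0.437 to 1.07 CPM in icKO. The 8 peptidases that break kinins down were all measured, with 0 called by edgeR or DESeq2, 0 at an unadjusted p under 0.05 and a median log2 fold change of -0.05. Per length in control, endothelin-converting enzyme Ece1 was at 17.3 CPM per kb and thimet oligopeptidase Thop1 at 11.5 CPM per kb. The carboxypeptidase N gene Cpn1, whose enzyme makes the ligands of the B1 receptor, was at 6.90 ± 1.19 CPM in control and 5.80 ± 0.671 CPM in icKO (adjusted p = 0.534), and neprilysin, Mme, at 27.9 ± 0.704 and 25.9 ± 2.12 CPM (adjusted p = 0.619).

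Of 24 proteases able to cut or activate the protease-activated receptors, 8 passed the filter. Thrombin (F2) was at 0.158 CPM in control and 0.103 CPM in icKO and did not pass it, and the trypsin genes Prss2 and Prss3 had 0 counts in every library. Among the 8, 7 had a log2 fold change below 0 and 1 above, with a median of -0.26. By edgeR or DESeq2 0 were called, and 1 was lower at an unadjusted p under 0.05. That was Plau, urokinase, at 9.07 to 9.72 CPM in control and 6.36 to 8.96 CPM in icKO without overlap (log2 fold change -0.31, SE 0.10, adjusted p = 0.249). The mast cell tryptase Tpsb2 was at 3.3 CPM in control and 2.66 CPM in icKO, and cathepsin S, Ctss, which also cuts PAR2, at 22 and 23.7 CPM. Prtn3, a neutrophil protease, stood at 3.28 CPM in control 3 and 0.515 to 0.916 CPM in the other control libraries. Of 12 protease inhibitors and cofactors, 10 passed the filter, 0 were called by edgeR or DESeq2 and 0 had an unadjusted p under 0.05. Among the 10, 9 had a log2 fold change above 0 and 1 below, with a median of 0.12. The direction of either list was not tested. The thrombin inhibitor Serpine2 was at 85.9 CPM in control and 92 CPM in icKO, thrombomodulin, Thbd, at 27 and 28.3 CPM, and Tfpi, an inhibitor of tissue factor, at 5.53 ± 1.37 and 7.34 ± 2.23 CPM (adjusted p = 0.559).

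Signalling genes below the receptors were all measured. Among 20 G protein and effector genes edgeR called 0, and 2 were higher and 2 lower before adjustment (p under 0.05). The largest of these was the protein kinase C gene Prkcd, at 423 to 506 CPM in control and 358 to 415 CPM in icKO without overlap (log2 fold change -0.26, SE 0.07, adjusted p = 0.113), which DESeq2 called lower. The other lower gene was the calcium release channel gene Itpr1, at -0.18 (SE 0.07, edgeR adjusted p = 0.365). The 2 higher were the G protein gene Gna14, at 0.17 (SE 0.07, adjusted p = 0.398), and the kinase gene Rock1, at 0.16 (SE 0.07, adjusted p = 0.404). Gnaq was at -0.15 (SE 0.08) and Plcb3, a phospholipase C gene, at 0.07 (SE 0.09). Of 8 genes that switch receptors off, edgeR and DESeq2 called 0 and 2 were higher at an unadjusted p under 0.05. They were the receptor kinase gene Grk3, from 31.8 ± 6.24 to 41.1 ± 2.42 CPM (adjusted p = 0.176), and Rgs2, an inhibitor of Gq signalling, from 18.2 ± 2.70 to 22.7 ± 1.69 CPM (adjusted p = 0.2). Of 8 channel genes known as targets of these receptors, edgeR and DESeq2 called 0 and 1 was lower at an unadjusted p under 0.05. That was the calcium-activated chloride channel gene Ano1, at 15.7 ± 2.69 CPM in control and 11.6 ± 1.75 CPM in icKO (log2 fold change -0.43, SE 0.13, adjusted p = 0.211). The potassium channel gene Kcnq3 was at -0.18 (SE 0.09, adjusted p = 0.493), Trpv1 at -0.01 (SE 0.10) and Trpa1 at 0.03 (SE 0.13).

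**Figure D3:**
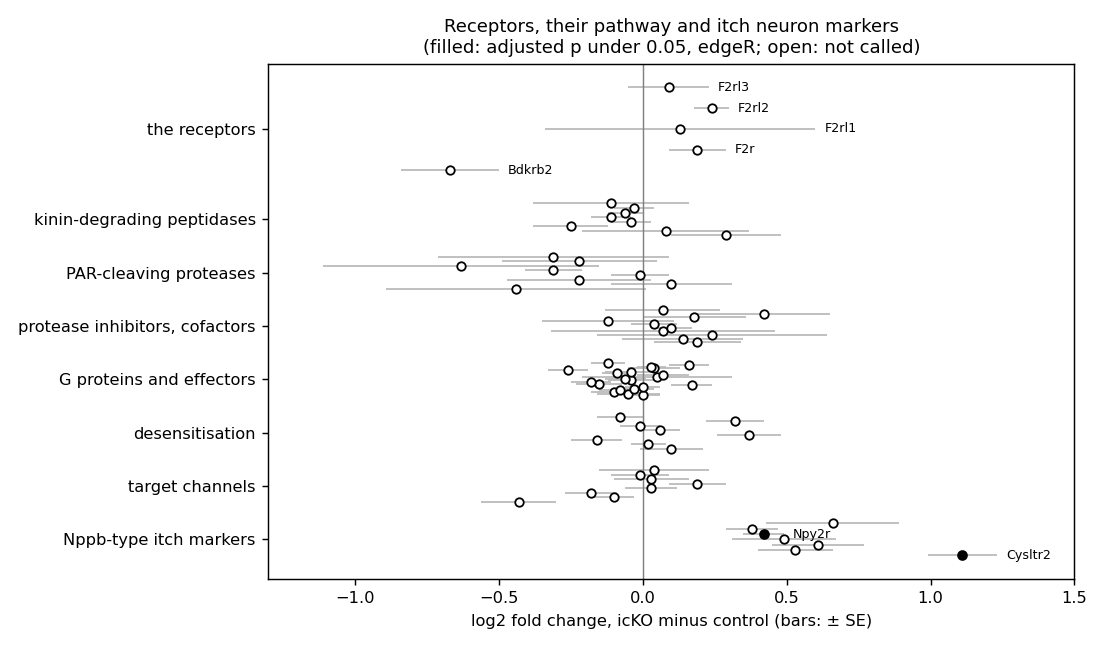
Log2 fold change (icKO minus control, bars ± SE) of the receptors, the pathway lists and the itch neuron markers, with 1 point per tested gene. Filled points had an adjusted p under 0.05 with edgeR. No receptor or pathway gene is filled, Bdkrb2 lies at -0.67, and all 7 itch markers lie above 0.

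In whole ganglia, fewer cells of a type and less RNA per cell cannot be told apart, so markers of cell types were read beside the receptors. Markers of Nppb-type itch neurons were higher in icKO: of 7 measured, 2 rose, 0 fell and all 7 were higher at an unadjusted p under 0.05. Their median log2 fold change was 0.53. The marker lists were chosen with earlier results of these data known, so these counts are no independent reading. Over all tested genes 0.475% rose and 0.377% fell. An unadjusted p under 0.05 in either direction was found for 11.1%, and the median size of the log2 fold change was 0.09. DESeq2 called 5 of the 7 higher (Cysltr2, Npy2r, Il31ra, Osmr and Htr1f). Their summed level was 181 to 212 CPM in control and 225 to 311 CPM in icKO, and none was at 0. The risers were Cysltr2, a leukotriene receptor gene (15 ± 1.83 to 32.4 ± 4.76 CPM, edgeR adjusted p = 0.000592), and Npy2r (adjusted p = 0.0178), whose call was lost without icKO 1 (0.0578) or control 3. Peptidergic nociceptor markers moved in both directions: of 5, 2 fell, 1 rose and 2 were not called. Among them, Gfra3 fell (edgeR adjusted p = 0.0252, up to 0.0761 and lost in 7 of the 9 cases with a single library left out, the exceptions being icKO 2 and control 2), and Calcb rose (adjusted p = 0.00253). Their summed level overlapped, at 2580 to 3550 CPM in control and 2450 to 3370 CPM in icKO. The part of either marker list in the receptor values was not tested.

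The other markers gave few calls. Of 6 A-fibre markers 1 rose, Ntrk3 (adjusted p = 0.0342, lost without icKO 1, 3, 4 or 5 or control 1 or 3, up to 0.0969). The other A-fibre markers lay mostly on the other side of 0: 4 of the 6 had a log2 fold change below 0, and the median was -0.20. Nefh, a neurofilament gene (-0.36, SE 0.08, edgeR adjusted p = 0.0763), and Runx3 (-0.48, SE 0.20, adjusted p = 0.38) were lower at an unadjusted p under 0.05, and DESeq2 called Nefh lower and Ntrk3 higher. The list summed to 3200 to 3680 CPM in control and 2760 to 3250 CPM in icKO. Among 4 markers of Mrgprd-type neurons, 4 of satellite glia, 6 of Schwann cells, 8 of endothelium, 7 of mural cells, 6 of fibroblasts and 7 of macrophages, 0 were called by edgeR or DESeq2, with 1 (Lpar3, higher) and 1 (Kcnj10, lower) at an unadjusted p under 0.05. For cells that are known to carry protease receptors or release their proteases, 3 of 6 platelet, 4 of 5 mast cell and 3 of 4 neutrophil markers passed the filter, with 0 called by edgeR and the platelet and mast cell markers not called by DESeq2 either. Platelet markers summed to 9.68 to 16.4 CPM in control and 9.26 to 16.4 CPM in icKO, with Itga2b lower at an unadjusted p under 0.05, and mast cell markers to 4.4 to 14.3 and 6.04 to 11.2 CPM. The 3 neutrophil markers (S100a8, S100a9 and Ngp) had a median log2 fold change of 0.81, all with an unadjusted p under 0.05 and all called higher by DESeq2, and the list summed to 13.7 to 21.5 CPM in control and 18.6 to 44 CPM in icKO.

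The values of the receptors nearest to a call were recomputed under other analysis choices. Bdkrb2 was lower and F2rl2 higher in icKO under each of the 17 alternatives run, and the adjusted p passed 0.05 under 2 of them for Bdkrb2 and under 1 for F2rl2. Control 1 was the library whose absence moved Bdkrb2 most toward 0, to -0.52.

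**Figure D4:**
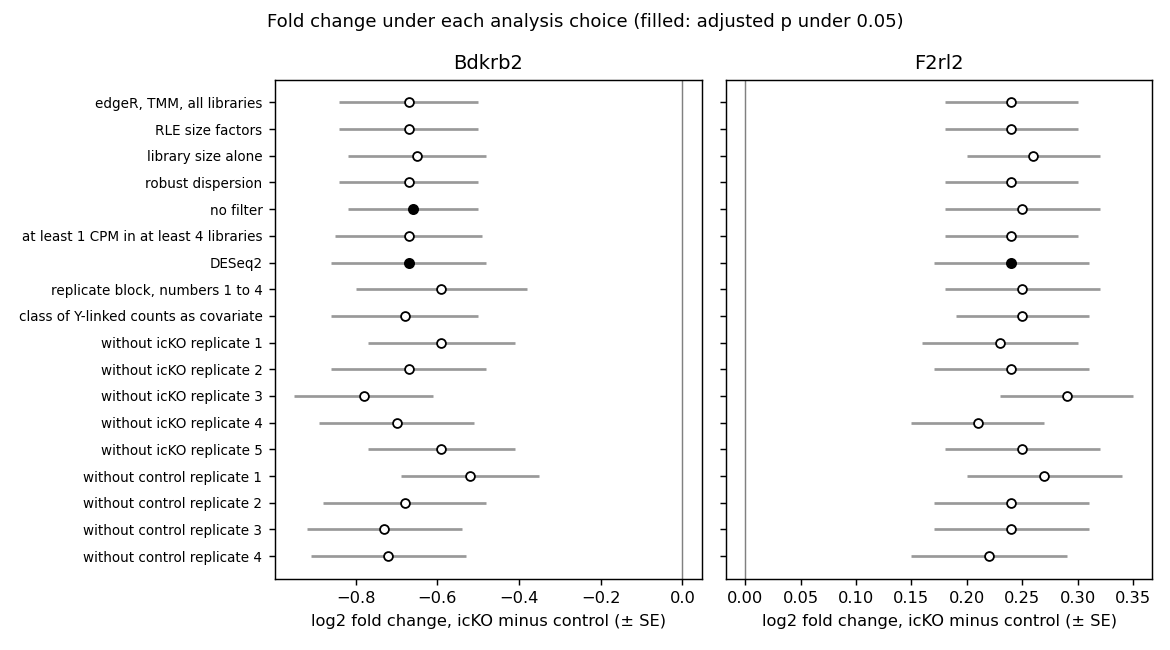
Log2 fold change (icKO minus control, bars ± SE) of Bdkrb2 and F2rl2 under the main analysis and 17 alternatives, filled where the adjusted p was under 0.05. Bdkrb2 stays between -0.78 and -0.52 and F2rl2 between 0.21 and 0.29, with 2 and 1 filled points.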

How the data were processed

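Lumbar ganglia were profiled in 9 libraries of 19607740 to 29481589 counts. The authors deposited raw read counts per Ensembl gene, made with featureCounts 1.5.0-p1, STAR 2.5.2a, bcl2fastq 2.20.0.422 and mm10, per the submitters' processing notes. The annotation release, strand setting and handling of multi-mapping reads were not given in the sources used here. Symbols, positions and merged exon lengths came from GENCODE M21 on the same build, which held all 55536 identifiers. Groups came from the sample titles.

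Genes were kept with filterByExpr by group (minimum count 10, total 15), scaled by TMM and tested with edgeR 4.0.16 (quasi-likelihood, R 4.3.3) over 17258 genes, with Benjamini-Hochberg adjustment. The script was tested on simulated data. SE is the log2 fold change divided by the root of F, and intervals use the total degrees of freedom of the test. DESeq2 1.42.0 was an alternative. Permutation tests used log2(CPM + 0.1) over all 126 splits, and log2 CPM for profile likeness a prior count of 2. Replicates of a group differed by more than sampling noise (chi-square per degree of freedom 6.07 to 23.5), so each counted once. The classes of Y-linked counts were split at 5 CPM of Ddx3y, Eif2s3y, Kdm5d and Uty, because the labels give no sex.

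Named genes were the 6 receptors, their neighbours, Prdm12, from each list the genes past the threshold (at most 6) or otherwise the 2 with the smallest adjusted p, and 3 similar profiles for each receptor with at least 5 CPM. Some genes that this rule names are not reported here. Further list members, named for their role, their unadjusted p or a DESeq2 call, were chosen after their values were seen. The members and lists were chosen with earlier results of these data known. Alternatives were RLE factors, library size alone, robust dispersion, no filter, a floor of 1 CPM in 4 or more libraries, DESeq2, each library left out, the replicate number as a block, and the class of Y-linked counts as a covariate.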

Additional observations from a re-analysis of the deposited data

Results flagged for a closer look

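Among 61 named genes, each looked at in both groups (122 groups), 7 had 1 library far from the others of its group by Dixon's test, where chance flags about 1 in 20 groups, and 0 of these were receptors. Prtn3 was at 3.28 CPM in control 3 against 0.515 to 0.916 CPM in the other control libraries. Adgre1, a macrophage gene, was at 42 CPM in the same control 3 against 5.83 to 10 CPM. F3, tissue factor, was at 12.2 CPM in icKO 2 against 20.5 to 22.8 CPM in the other icKO libraries. Grk3 was at 36.9 CPM in icKO 1 against 41.4 to 43.2 CPM. Atg2b was at 40.5 CPM in control 2 against 52 to 53.8 CPM. Kctd11 was at 10.9 CPM in icKO 3 against 9.66 to 9.96 CPM. S100z was at 0 CPM in icKO 5, with 1 count in each other icKO library.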

How the results depend on the processing

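Over the 17 alternatives, Bdkrb2 stayed at -0.78 to -0.52, F2rl2 at 0.21 to 0.29, F2r at 0.09 to 0.25 and F2rl3 at 0.04 to 0.15 (log2 fold change), each with the direction it had with all libraries. Calls were gained for Bdkrb2 without a filter (-0.66, adjusted p = 0.0284) and for Bdkrb2 and F2rl2 with DESeq2 (-0.67 and 0.24), and the cause was not tested. Adjusted p ranged from 0.0184 to 0.407 for Bdkrb2 and from 0.0131 to 0.333 for F2rl2. With a single library left out, Bdkrb2 was at -0.78 to -0.52, F2rl2 at 0.21 to 0.29 and F2rl1 at -0.17 to 1.12, reversing without control 2 or control 3. Bdkrb1, at or under the floor of 3 counts in all libraries but icKO 1, is given no fold, and F2rl1 gave no value under the filter of 1 CPM. Of all tested genes, 82 were higher and 65 lower. These counts were 172 and 221 without a filter and 198 and 238 with DESeq2. They ranged from 45 to 85 higher and 33 to 90 lower with a single library left out, with 45 higher without icKO 1 and fewer lower genes without icKO 1 (33), icKO 3 (34), icKO 4 (35), icKO 5 (38), control 1 (43) or control 3 (37). With the replicate number as a block, over libraries 1 to 4 of each group, 28 were higher and 20 lower, and Bdkrb2 was at -0.59 and F2rl2 at 0.25. Deviations of same-numbered libraries correlated at 0.103, -0.175, -0.0441 and 0.17, and 0 of 4 controls correlated best with their own number. With 4 numbers, these values cannot settle whether the numbers pair the libraries. Depth limits Bdkrb1 and F2rl1, which had at most 4 and 35 counts in a library.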
